A study of Mus with 21 samples.

Results

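The comparison described here set the wounds filled with aFGF hydrogels, at all 3 pH values, against wounds left without a hydrogel. It used 12 of the 21 RNA-seq libraries of the series. Of these, 9 came from wounds with aFGF, 3 each at pH 6.4, 7.4 and 8.4 (6.4/aFGF, 7.4/aFGF and 8.4/aFGF), and 3 were controls. All 12 came from skin wounds of wild type (WT) C57BL/6 mice, taken on Day 4 after a full-thickness circle of 8 mm diameter had been punched on each side of the back. The mice were females, 8 weeks old. The libraries of a group are numbered as biological replicates, and the sources used here do not say whether each came from its own mouse. The wounds were held open with splints under a transparent dressing, and the control mice had the same wound, splint and dressing but no scaffold. The scaffold was GelMA, a gelatin that is cross-linked by light, with acid or bicarbonate added to set its pH. No group had a GelMA scaffold without a growth factor, so the effects of the scaffold, its pH and aFGF cannot be told apart in this comparison. The 9 libraries of the bFGF hydrogels, 3 at each of the same pH values from mice of the same strain and age, served to ask which differences belonged to aFGF.

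aFGF (FGF1) binds all FGF receptors and starts the RAS-ERK cascade, which induces its own inhibitors of the Sprouty and dual-specificity phosphatase families. In a skin wound, neutrophils arrive first and are followed by monocytes that become macrophages. Keratinocytes at the wound edge then switch on migration genes and ligands of the EGF receptor. Fibroblasts lay down new matrix, and the fat layer under the dermis loses and later regains its adipocytes. Each of these cell types and pathways was followed here by a list of genes.

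Raw counts of 18806 genes were used, with 34869372 to 37817833 counts per library. Levels are given as CPM, the counts divided by each library's effective size from TMM over all 21 libraries. Differences are log2 fold changes from edgeR's quasi-likelihood test, with 1 mean per group and the mean of the 3 aFGF groups set against the control. To be called, a gene needed an adjusted p (Benjamini-Hochberg, over all genes tested) under 0.05 together with a log2 fold change of more than 0.58 in size. The libraries held skin transcripts, with basal keratinocyte genes summing to 3040.5 to 5554 CPM and fibroblast matrix genes to 50289.9 to 76776 CPM over the 12. One library stood apart from its label. Control replicate 2 correlated with control replicates 1 and 3 at r = 0.931 each across genes, but with the 9 aFGF libraries at r = 0.954 to 0.970, whereas control replicates 1 and 3 correlated with each other at r = 0.976. On the first principal component it lay at 34.5, beyond the aFGF libraries (-3.78 to 24.6) and far from control replicates 1 (-74.6) and 3 (-76.9). Each result is therefore given with and without this library.

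**Figure D1:**
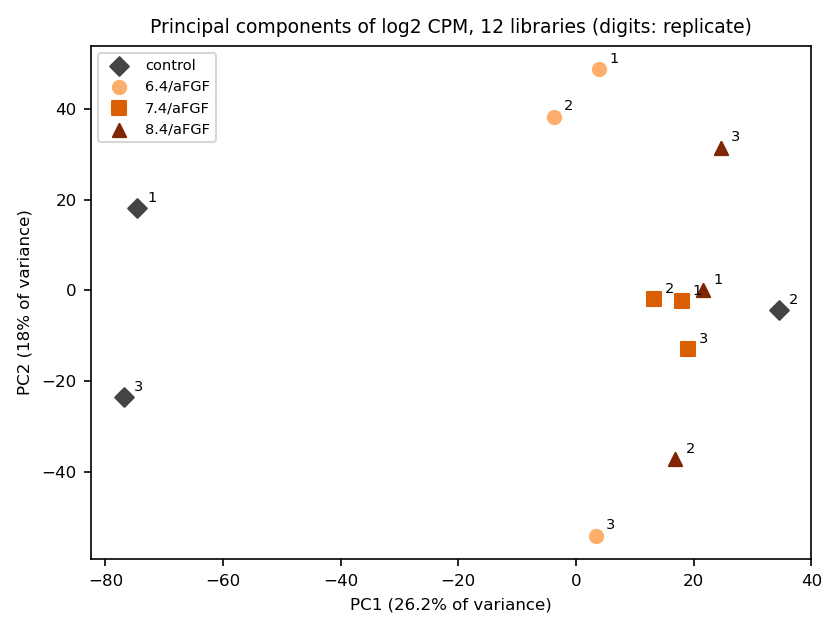
Principal components of the log2 CPM of the 12 libraries, with PC1 (26.2% of the variance) on the horizontal axis and PC2 (18.0%) on the vertical axis; symbols are groups and digits are replicate numbers. Control replicates 1 and 3 lie alone at the left, and control replicate 2 lies at the right beside the 9 aFGF libraries.

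With all 12 libraries, 5 of 15503 genes tested were called (0.0323%). Fkbp5 and Tns4 were higher with aFGF (0.0129%), and Prss35, Col7a1 and Megf6 were lower (0.0194%). In each of the 5 genes the 9 aFGF libraries lay wholly on one side of the 3 controls, and control replicate 2 stood with the other controls. All 5 were also called without control replicate 2. By comparison, the 9 aFGF libraries lay above all 3 controls in 374 genes (2.41% of those tested) and below them in 262 genes (1.69%).

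Fkbp5, which encodes a co-chaperone of steroid hormone receptors that glucocorticoids induce, had 67.9, 85.3 and 79.1 CPM in control replicates 1, 2 and 3. With aFGF it had 198 to 407 CPM (median 247). The highest control was well below the lowest aFGF library. The log2 fold change was 1.76 (SE 0.18, adjusted p = 0.00697) with edgeR's quasi-likelihood test. Tns4, a tensin that links integrins in epithelial cells, had 21.6, 29.5 and 24.9 CPM in the controls and 43.8 to 66.6 CPM (median 46.6) with aFGF. Its log2 fold change was 1.04 (SE 0.14, adjusted p = 0.0497), close to the threshold for a call.

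The 3 lower genes were Prss35, Col7a1 and Megf6. Prss35, a secreted protein of the serine protease family, had 19.7, 15.8 and 28.3 CPM in the controls and 1.97 to 6.01 CPM (median 3.98) with aFGF, a log2 fold change of -2.52 (SE 0.25, adjusted p = 0.00697). Col7a1 encodes type VII collagen, which forms the fibrils that anchor the epidermal basement membrane. It had 78.0, 86.0 and 92.5 CPM in the controls and 26.2 to 50.5 CPM (median 35.3) with aFGF, a log2 fold change of -1.25 (SE 0.13, adjusted p = 0.00697). Megf6, a large protein with EGF-like repeats, had 26.1, 27.8 and 45.4 CPM in the controls and 6.22 to 12.8 CPM (median 9.47) with aFGF. Its log2 fold change was -1.81 (SE 0.20, adjusted p = 0.00901). The calls rested on few controls. Without control replicate 3, edgeR called 0 genes (1324 at an unadjusted p under 0.05), and Prss35, Col7a1 and Megf6 each had an adjusted p of 0.0613 there. Without control replicate 1, it called these 3 genes alone, with Fkbp5 at a log2 fold change of 1.67 (adjusted p = 0.116) and Tns4 at 0.93 (adjusted p = 0.310). Tns4 was also lost without any 1 of 7 of the 9 aFGF libraries, all but 6.4/aFGF replicate 2 and 7.4/aFGF replicate 3 (log2 fold changes 1.00 to 1.05, adjusted p = 0.0680 to 0.139).

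**Figure D2:**
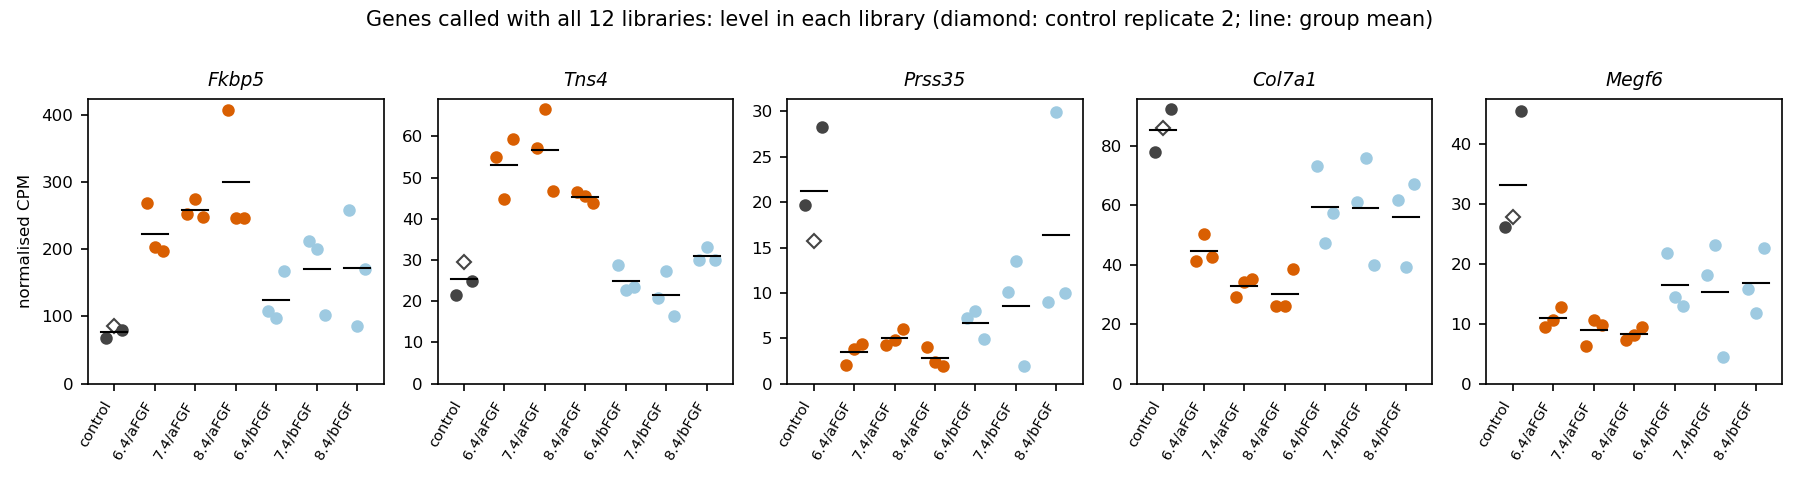
Level of the 5 genes called with all 12 libraries, in CPM from 0 on the vertical axis, in each library of the control, aFGF and bFGF groups; points are libraries, the open diamond is control replicate 2 and lines are group means. The aFGF points of Fkbp5 (198 to 407 CPM) and Tns4 lie above all 3 controls, and those of Prss35, Col7a1 and Megf6 lie below them.

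The same 5 genes were then compared with the bFGF hydrogels, a test in which the controls play no part. It uses the same 9 aFGF libraries by which the genes were chosen, so it is not independent of that choice. Over all pH values, 592 of 15696 genes were called between aFGF and bFGF (3.77%), 282 higher with aFGF (1.80%) and 310 lower (1.98%). Fkbp5 had 86.4 to 259 CPM (median 168) with bFGF and was higher with aFGF by a log2 fold change of 0.74 (adjusted p = 0.0318). Tns4 had 16.5 to 33.2 CPM with bFGF, which overlapped the controls and lay below all 9 aFGF libraries (log2 fold change 1.01, adjusted p = 0.000366). Prss35 and Col7a1 were lower with aFGF than with bFGF, by log2 fold changes of -1.43 (adjusted p = 0.0169) and -0.72 (adjusted p = 0.00929). Megf6 missed the threshold, with a log2 fold change of -0.80 (SE 0.25, adjusted p = 0.0515) and overlapping ranges. In the plot of these genes the bFGF group means of Prss35, Col7a1 and Megf6 lie between those of the controls and of aFGF.

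Without control replicate 2, 1730 of 15714 genes were called (11.0%), 832 higher with aFGF (5.29%) and 898 lower (5.71%). The library left out decided this count. In 757 of the 832 higher genes (91.0%) and 827 of the 898 lower genes (92.1%), control replicate 2 lay nearer to the aFGF median than to the mean of control replicates 1 and 3 on the log2 scale. In 91 of the higher and 88 of the lower genes it lay on the control side of all 9 aFGF libraries. Control replicates 1 and 3 were not set against the aFGF range in this count. With 2 controls left, a fit without control replicate 1 as well gave 86 calls and a fit without control replicate 3 gave 181, where the lone control is taken to vary like the aFGF groups. Of the 93 genes described here that were called without control replicate 2, 69 lost the call without control replicate 1, 62 lost it without control replicate 3 and 22 kept it in both fits. Leaving out 1 of the aFGF libraries ended the call of 9 of them (Dusp4, Epgn, Il6, Mertk, Ngp, Plvap, Ptn, Retnlg and Sox18). The counts of calls per list below are given for the fit without control replicate 2 and then with control replicate 1 or 3 left out as well. Of all genes, 5.29% were called higher, 5.71% lower and 11.0% in either direction in the first of these fits. Lists under 11.0% included differentiated epidermis (7.69%), the cell cycle (4.00%) and the interferon response (4.17%). Lists above it included immediate early genes (20.0%), myofibroblasts and smooth muscle (16.7%), and pH sensing and acid-base transport (19.4%). Groups in which several genes had all 3 controls on one side of the aFGF libraries are described first, with the other genes of the same lists, and then those in which control replicate 2 had the level of an aFGF wound.

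Il24 and the EGF receptor ligands Areg and Tgfa were lower in all 3 controls than in any aFGF library. Il24, an IL-10 family cytokine, had 1.21, 1.40 and 0.992 CPM in the controls and 3.10 to 8.66 CPM (median 6.18) with aFGF. The 9 aFGF libraries were all above the controls, with a log2 fold change of 2.34 (SE 0.42, adjusted p = 0.105) over 12 libraries and of 2.45 (SE 0.52, adjusted p = 0.0171) without control replicate 2. Areg, the EGF receptor ligand amphiregulin, had 7.98, 7.53 and 6.48 CPM in the controls and 9.02 to 39.4 CPM (median 20.5) with aFGF. It did not overlap the controls either, but its spread among the aFGF libraries was wide, and it was not called with or without control replicate 2 (log2 fold change 1.54, SE 0.42, adjusted p = 0.145 and, without it, 0.0791). Tgfa, a further ligand of that receptor, had 8.67, 19.3 and 9.07 CPM in the controls and 19.9 to 33.6 CPM (median 28.8) with aFGF. Every aFGF library was above every control, the lowest only just above control replicate 2, and Tgfa was called without that library (log2 fold change 1.60, SE 0.26, adjusted p = 0.00745).

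The list of EGF receptor ligands, receptors and regulators had 17 genes tested without control replicate 2, of which Epgn, Ereg, Hbegf, Nrg1 and Tgfa were called higher and Nrg2 and Nrg4 lower (41.2% in either direction, against 11.0% of all genes). The 5 higher calls became 0 without control replicate 1 and 0 without control replicate 3, and the 2 lower calls 0 without control replicate 1 and 1 without control replicate 3. The median log2 fold change of the list was 0.33, against -0.03 over all genes tested. Ereg, epiregulin, had 3.50, 30.5 and 3.39 CPM in the controls and 12.1 to 256 CPM (median 42.1) with aFGF, where 7 of the 9 libraries were above control replicate 2. Hbegf had 9.22, 35.0 and 11.3 CPM in the controls and 23.4 to 76.9 CPM (median 43.6) with aFGF, and Epgn, epigen, had 6.72, 13.4 and 4.71 CPM and 10.5 to 47.1 CPM (median 25.6). Control replicate 2 lay inside the aFGF range of both, and the call of Epgn was lost in 5 of 15 other settings. Several of these ligands also differed between the growth factors. Of 16 members tested, 6 were called higher with aFGF than with bFGF (Areg, Epgn, Ereg, Errfi1, Hbegf and Nrg1) and 0 lower, against 1.80% of all genes called higher. The log2 fold change of aFGF over bFGF was 1.61 for Areg (SE 0.26, adjusted p = 0.00419) and 2.32 for Ereg (SE 0.52, adjusted p = 0.0134). With bFGF, Areg had 4.95 to 8.95 CPM, a range that overlapped the controls.

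Further genes of the wound epidermis stood with these ligands. Dsg3, a cadherin of keratinocyte desmosomes, had 17.1, 31.1 and 19.6 CPM in the controls and 31.6 to 62.2 CPM (median 44.6) with aFGF, all above the controls, and was called without control replicate 2 (log2 fold change 1.23, SE 0.17, adjusted p = 0.00534). Grhl3, an epidermal transcription factor, had 5.17, 14.1 and 3.86 CPM in the controls and 14.9 to 22.8 CPM (median 18.5) with aFGF. Its 9 aFGF libraries were above all 3 controls, with a log2 fold change of 2.04 without control replicate 2 (adjusted p = 0.00319), and it was higher with aFGF than with bFGF (log2 fold change 0.80, adjusted p = 0.00276). Ivl, which encodes involucrin of the cornified envelope, was on the contrary lower, with 19.5, 18.2 and 31.6 CPM in the controls and 4.45 to 17.2 CPM (median 9.12) with aFGF (log2 fold change -1.37 without control replicate 2, SE 0.35, adjusted p = 0.031). The wound-edge keratinocyte genes called higher without control replicate 2 were Epgn, Ereg, Hbegf, Inhba, Itga5, S100a8, S100a9 and Slpi. Epgn, Ereg and Hbegf are also in the list of EGF receptor ligands, and S100a8 and S100a9 in the neutrophil list. The wound-edge keratin gene Krt6a was not called. In the list of wound-edge keratinocyte genes, 8 of 23 tested were called higher and 0 lower without control replicate 2 (34.8%, against 5.29% of all genes called higher), a count that fell to 1 without control replicate 1 and 0 without control replicate 3. In the list of basal keratinocyte genes Dsg3 was called alone among 12, also without control replicate 3 but not without control replicate 1. Of 26 genes of differentiated epidermis, Tgm1 was called higher and Ivl lower, and neither without control replicate 1 or 3.

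Among proteases of the matrix, Mmp19 was called higher and Mmp12 lower without control replicate 2. Mmp19 had 239, 258 and 181 CPM in the controls and 299 to 986 CPM (median 504) with aFGF, all above the controls (log2 fold change 1.43 without control replicate 2, SE 0.36, adjusted p = 0.0288). Mmp12, the elastase of macrophages, had 82.6, 289 and 108 CPM in the controls and 14.6 to 54.5 CPM (median 25.6) with aFGF, all below the controls. Its log2 fold change was -2.47 over 12 libraries (SE 0.44, adjusted p = 0.101) and -1.74 without control replicate 2 (SE 0.41, adjusted p = 0.0237). Both genes also differed from bFGF, with log2 fold changes of aFGF over bFGF of 1.67 for Mmp19 (adjusted p = 0.000366) and -2.37 for Mmp12 (adjusted p = 0.00254). With bFGF, Mmp19 had 146 to 215 CPM and Mmp12 had 55.4 to 339 CPM, ranges that overlapped the controls. Adamts9, a secreted protease, had 39.1, 68.6 and 26.1 CPM in the controls and 70.4 to 150.3 CPM (median 103) with aFGF, again without overlap. In the whole list of matrix proteases and inhibitors, 10 of 28 tested were called higher and 3 lower without control replicate 2 (46.4% in either direction, against 11.0% of all genes). The higher calls became 1 without control replicate 1 and 1 without control replicate 3, and the lower calls 0 without control replicate 1 and 1 without control replicate 3.

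Some cytokine and receptor genes had control replicate 2 inside the aFGF range. Tnfrsf12a, the receptor of TWEAK, had 39.8, 73.3 and 37.6 CPM in the controls and 64.2 to 121 CPM (median 83.3) with aFGF. Control replicate 2 lay within the aFGF range here, and the gene was called without that library (log2 fold change 1.14, SE 0.21, adjusted p = 0.0104). It was higher with aFGF than with bFGF (log2 fold change 0.97, adjusted p = 0.0013). Clcf1, a cytokine that signals through gp130, had 6.11, 14.4 and 5.35 CPM in the controls and 12.5 to 25.9 CPM (median 18.5) with aFGF, and it was likewise higher than with bFGF (log2 fold change 1.14, adjusted p = 0.00202).

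Retnla, Gpnmb and Mgl2, genes of macrophage subsets, were lower in every aFGF library than in any control. Retnla, which macrophages express in response to IL-4, had 76.3, 112 and 208 CPM in the controls and 4.05 to 45.0 CPM (median 16.0) with aFGF. The highest aFGF library was below the lowest control, and the log2 fold change was -2.92 over 12 libraries (SE 0.54, adjusted p = 0.108) and -3.05 without control replicate 2 (SE 0.62, adjusted p = 0.0143). Gpnmb, a glycoprotein of lysosome-rich macrophages and of melanocytes, had 218, 135 and 272 CPM in the controls and 37.7 to 109.8 CPM (median 54.9) with aFGF (log2 fold change -2.07 without control replicate 2, SE 0.30, adjusted p = 0.00574). Mgl2, a lectin of macrophages and dermal dendritic cells, had 50.7, 38.6 and 90.5 CPM in the controls and 8.56 to 29.0 CPM (median 15.1) with aFGF, again with no overlap. For these 3 genes no difference between aFGF and bFGF was called (log2 fold changes -0.31, SE 0.56; -0.40, SE 0.24; and 0.13, SE 0.35). Mertk, a receptor for the uptake of dead cells, had 43.7, 47.1 and 47.0 CPM in the controls and 47.3 to 91.8 CPM (median 72.3) with aFGF, the lowest only just above the controls (log2 fold change 0.66 without control replicate 2, adjusted p = 0.0376). That call was lost in 9 of 15 other settings, among them without control replicate 1 or 3 and without any 1 of 6 aFGF libraries, all but 6.4/aFGF replicate 3, 7.4/aFGF replicate 3 and 8.4/aFGF replicate 2.

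The 4 lists of macrophage genes held different mixtures of calls. The share called in either direction without control replicate 2 was 21.7% in the general list and 23.8% in the M2 list. It was 34.6% in the foreign body and lipid-associated list, against 11.0% of all genes. Of 23 general monocyte and macrophage genes, 5 were called higher (Cd14, Cd300lf, Fcgr3, Itgam and Mertk) and 0 lower without control replicate 2, with a median log2 fold change of 0.24; the 5 calls fell to 0 without control replicate 1 and 0 without control replicate 3. The M1 list had 9 of 19 genes called higher and 0 lower (47.4%, against 5.29% of all genes called higher), a count that fell to 1 without control replicate 1 and 0 without control replicate 3. Its summed level was 603, 5352 and 486 CPM in the controls and 1539 to 4856 CPM (median 2192) with aFGF, with control replicate 2 the highest of the 12 libraries. Several called M1 genes, among them Il6 and Tnf, are also in the interleukin or NF-kappa B lists described below. Of 26 genes of foreign body and lipid-associated macrophages, 7 were called lower without control replicate 2 (Atp6v0d2, Cd36, Cd5l, Gpnmb, Lpl, Mmp12 and Trem2) and 2 higher (Hmox1 and Mmp9), and none of them without control replicate 1 or 3. Of 21 M2 genes, Mgl2, Pparg and Retnla were called lower and Il4ra and Msr1 higher. The lower calls became 0 without control replicate 1 and 1 without control replicate 3, and the higher calls were lost in both. Of the lower calls in these macrophage lists, those of Lpl and Pparg are shared with the adipocyte list described below. Mrc1, which encodes the M2 stain CD206, had 837, 690.4 and 833 CPM in the controls and 485 to 1376 CPM (median 735) with aFGF, overlapping ranges with a log2 fold change of 0.22 (SE 0.29, adjusted p = 0.717). Hmox1, heme oxygenase, had 504, 837 and 504 CPM in the controls and 714 to 2486 CPM (median 1142) with aFGF. Control replicate 2 lay inside the aFGF range. Hmox1 was called without that library (log2 fold change 1.37, adjusted p = 0.00927), and its log2 fold change over 12 libraries was 0.61 at pH 6.4, 0.94 at pH 7.4 and 1.74 at pH 8.4.

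Of 20 genes of eosinophils and mast cells tested, 5 were called lower and 1 higher without control replicate 2 (30.0% in either direction, against 11.0% of all genes), and the 5 lower calls were lost without control replicate 1 or 3. Ear2, an eosinophil-associated ribonuclease that macrophages also express, had 18.4, 14.5 and 33.1 CPM in the controls and 1.38 to 8.43 CPM (median 4.82) with aFGF (log2 fold change -2.35 without control replicate 2, SE 0.51, adjusted p = 0.0176). Cpa3, the carboxypeptidase of mast cells, had 73.6, 53.9 and 71.2 CPM in the controls and 31.6 to 52.8 CPM (median 40.5) with aFGF, and the mast cell receptor Mrgprb1 had 7.83, 5.92 and 7.83 and 2.18 to 5.24 CPM (median 4.10). In all 3 genes the aFGF libraries were below all 3 controls.

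Some genes of Wnt signalling were called lower without control replicate 2. Lgr5 and Lgr6 encode receptors for R-spondin, which strengthens Wnt signals, and mark stem cells of the hair follicle. Lgr5 had 8.35, 3.61 and 13.1 CPM in the controls and 1.13 to 3.77 CPM (median 1.67) with aFGF, with 1 aFGF library above control replicate 2 (log2 fold change -2.59 without control replicate 2, SE 0.34, adjusted p = 0.00444). Lgr6 had 7.04, 5.24 and 7.72 CPM in the controls and 1.21 to 3.52 CPM (median 2.66) with aFGF, below all controls. Axin2, a target and inhibitor of the Wnt pathway, had 14.9, 8.96 and 18.0 CPM in the controls and 4.12 to 6.85 CPM (median 6.10) with aFGF, also below all controls (log2 fold change -1.53 without control replicate 2, SE 0.18, adjusted p = 0.00362). Nkd1, a further inhibitor of the pathway, had 11.0, 2.86 and 10.0 CPM in the controls and 1.37 to 3.42 CPM (median 2.77) with aFGF, with control replicate 2 among the aFGF libraries, and was lower than with bFGF too (log2 fold change -1.0, adjusted p = 0.00735). Of 50 genes of the Wnt list tested, 5 were called lower (Axin2, Lgr5, Lgr6, Nkd1 and Wnt5b) and 0 higher without control replicate 2, which is 10.0% against 5.71% of all genes. The count fell to 2 without control replicate 1 and 2 without control replicate 3. Of 12 hair follicle genes tested, Lhx2 alone was called, lower, and it was not called without control replicate 1 or 3.

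Of 29 genes of fibroblast collagen and matrix, 4 were called lower (Col6a1, Col6a2, Lum and Postn) and Lox was called higher without control replicate 2. This is 17.2%, against 11.0% of all genes, and none of the 5 was called without control replicate 1 or 3. Postn, the matrix protein periostin, had 2203, 1335 and 2112 CPM in the controls and 562 to 1286 CPM (median 672) with aFGF, all below the controls (log2 fold change -1.42 without control replicate 2, SE 0.24, adjusted p = 0.00836). Lum, the proteoglycan lumican, had 752, 477 and 724 CPM in the controls and 291 to 494 CPM (median 329) with aFGF, where control replicate 2 lay inside the aFGF range. Col6a1, a chain of type VI collagen, had 1168, 620.5 and 1348 CPM and 507 to 894 CPM (median 640.1), with control replicate 2 among the aFGF libraries. Lox, which cross-links collagen, had 439, 881 and 362 CPM in the controls and 659 to 1447 CPM (median 835) with aFGF, with control replicate 2 inside the aFGF range. Igfbp5, which binds insulin-like growth factors, had 487, 245 and 682 CPM in the controls and 129.7 to 249 CPM (median 189) with aFGF, with 1 aFGF library above control replicate 2 (log2 fold change -1.62 without control replicate 2, adjusted p = 0.00332). The contractile gene Acta2, which encodes the stained α-SMA, had 317, 164 and 299.8 CPM in the controls and 156 to 297 CPM (median 213) with aFGF and was not called in either fit (log2 fold change -0.27, SE 0.18, adjusted p = 0.445 over 12 libraries). Without control replicate 2 it had a log2 fold change of -0.54 (SE 0.14, adjusted p = 0.0289), under the fold threshold. Of 18 genes of myofibroblasts and smooth muscle, Cnn1, Cspg4 and Myl9 were called lower and 0 higher without control replicate 2, with a median log2 fold change of -0.42, and none without control replicate 1 or 3.

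Of 36 endothelial genes tested, 6 were called higher and Vegfb called lower without control replicate 2 (19.4% in either direction, against 11.0% of all genes). The higher calls were lost without control replicate 1 or 3, and that of Vegfb was kept. Sox18, a transcription factor of endothelial cells, had 53.4, 39.9 and 36.8 CPM in the controls and 59.5 to 80.6 CPM (median 68.2) with aFGF, all above the controls (log2 fold change 0.59 without control replicate 2, SE 0.15, adjusted p = 0.0271). Plvap, which forms the diaphragms of endothelial pores, had 209, 229 and 184 CPM in the controls and 246 to 403 CPM (median 316) with aFGF, again without overlap. The call of Sox18 without control replicate 2 was lost in 6 and that of Plvap in 7 of 15 other settings, both without control replicate 1 or 3, without 6.4/aFGF replicate 1 and with all groups in one fit. Sox18 was also lost without 8.4/aFGF replicate 3 and Plvap without 8.4/aFGF replicate 1 or 2. Pecam1, which encodes the stained CD31, had 233, 199.8 and 159.6 CPM in the controls and 186 to 328 CPM (median 255) with aFGF and missed the threshold (log2 fold change 0.41, SE 0.18, adjusted p = 0.254). No difference between aFGF and bFGF was called for these 3 genes (log2 fold changes 0.19, SE 0.15; -0.02, SE 0.17; and -0.03, SE 0.17). Hmga2, a chromatin protein of embryonic and growing tissue, had 2.48, 2.63 and 1.35 CPM in the controls and 4.16 to 10.2 CPM (median 5.76) with aFGF, and was lower with aFGF than with bFGF (8.06 to 15.9 CPM, log2 fold change -0.85, adjusted p = 0.00797). Cdkn2b, an inhibitor of cell cycle kinases, was called lower without control replicate 2, with 5.82, 4.75 and 6.20 CPM in the controls and 1.81 to 3.96 CPM (median 2.51), and of 50 cell cycle genes it was the only one called lower, beside Cdkn1a called higher. Neither call was kept without control replicate 1 or 3.

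**Figure D3:**
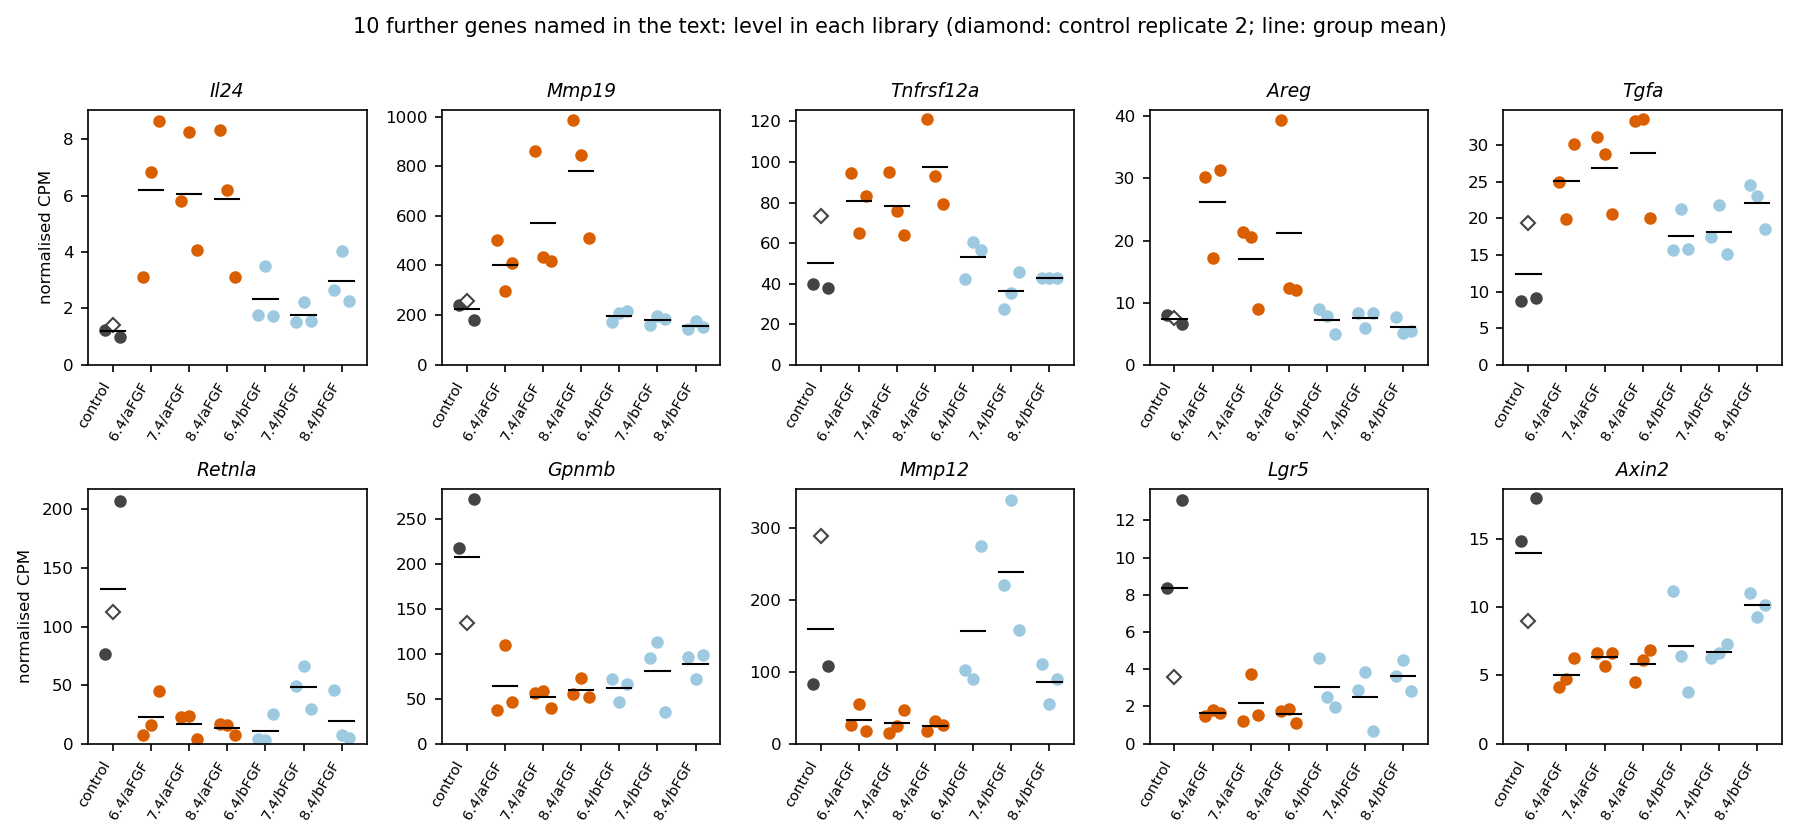
Level of 10 genes in CPM from 0 on the vertical axis, in each library of the control, aFGF and bFGF groups; points are libraries, the open diamond is control replicate 2 and lines are group means. The upper row shows genes with a positive log2 fold change and the lower row genes with a negative one; Areg and Mmp19 stand above the controls with aFGF and beside them with bFGF, and Mmp12 with aFGF lies below all controls and all bFGF libraries.

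In the larger set of genes, control replicate 2 had the level of an aFGF wound. Neutrophil genes led the higher side of it. Of 26 genes tested, 18 were called higher and 0 lower without control replicate 2 (69.2%, against 5.29% of all genes), with a median log2 fold change of 2.99. With all 12 libraries none of the 26 was called, and the median was 0.91. The summed level of the list was 1892, 13542 and 1027 CPM in control replicates 1, 2 and 3 and 6588 to 15780.4 CPM (median 9179) with aFGF. Controls 1 and 3 were thus below every aFGF library, and control replicate 2 was within their range. With bFGF the list summed to 4700 to 18780 CPM (median 7096), and 0 of the 26 genes were called between aFGF and bFGF. In tissue, more neutrophils and more of these RNAs per cell cannot be told apart. With a further control left out, 9 of these genes were called without control replicate 1 and 4 without control replicate 3.

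Fpr1, a receptor for bacterial peptides on neutrophils, had 6.96, 87.0 and 6.61 CPM in the controls and 56.0 to 114 CPM (median 81.7) with aFGF. Its log2 fold change was 3.56 without control replicate 2 (SE 0.27, adjusted p = 0.00116) and 1.26 with it (SE 0.70, adjusted p = 0.354). The decoy receptor Il1r2 had 47.1, 290.0 and 31.4 CPM in the controls and 171 to 456 CPM (median 297) with aFGF, and the lectin receptor Clec4d had 76.1, 527 and 42.3 CPM and 264 to 645 CPM (median 359). S100a8, a calcium-binding protein of neutrophils and wound-edge keratinocytes, had 436, 2750.3 and 299.8 CPM in the controls and 1427 to 3719 CPM (median 2398) with aFGF. Each of these was thus low in control replicates 1 and 3 alone. The genes of neutrophil granules varied more among the aFGF libraries. Mmp8 had 8.41, 56.0 and 5.15 CPM in the controls and 18.2 to 407 CPM (median 141) with aFGF, with 8 of the 9 libraries above control replicate 2. Ngp had 0.211, 3.12 and 0.138 CPM and 1.80 to 87.1 CPM (median 10.4), and Retnlg, a resistin-like protein of neutrophils, had 28.3, 226 and 4.52 CPM and 45.1 to 916 CPM (median 262). The calls of Ngp and Retnlg without control replicate 2 were lost in 8 and 11 of 15 other settings. The receptor Trem1, which amplifies inflammation, had 18.4, 244 and 3.03 CPM in the controls and 108 to 517 CPM (median 207) with aFGF.

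Cytokines and acute phase genes had the same order of levels. Of 48 interleukin and gp130 cytokine genes, 19 were called higher and 1 lower without control replicate 2 (41.7% in either direction, against 11.0% of all genes). The higher calls became 2 without control replicate 1 and 3 without control replicate 3. Of 52 genes of the NF-kappa B pathway, 19 were called higher and 0 lower (36.5%, against 5.29% of all genes called higher), a count that fell to 0 without control replicate 1 and 1 without control replicate 3. Il6 had 6.54, 106 and 11.5 CPM in the controls and 31.3 to 447 CPM (median 83.3) with aFGF, and Tnf had 3.16, 43.8 and 2.23 CPM and 8.68 to 16.8 CPM (median 9.75). In Tnf control replicate 2 lay above all 9 aFGF libraries, and the log2 fold change was 2.15 without it (adjusted p = 0.00798) and -0.45 with it (adjusted p = 0.763), a reversed sign. The call of Il6 was lost in 5 of 15 other settings. The other cytokines named here had positive log2 fold changes in both fits. Csf3, the growth factor of neutrophils, had 2.85, 88.8 and 1.32 CPM in the controls and 14.2 to 191 CPM (median 44.3) with aFGF. The chemokines Cxcl2 and Cxcl5, which draw neutrophils, had 52.3, 1011 and 14.4 and 101, 835 and 42.7 CPM in the controls and 171 to 1003 and 348 to 913 CPM (median 583) with aFGF. Cd14, a co-receptor for endotoxin, had 194, 1821 and 109 CPM in the controls and 785 to 2375 CPM (median 1056) with aFGF, and it was higher with aFGF than with bFGF (log2 fold change 1.19, SE 0.34, adjusted p = 0.0344).

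Il11, Ptx3 and Sphk1 were members of this set that also differed from bFGF. Il11, a gp130 cytokine, had 1.50, 19.1 and 1.05 CPM in the controls and 9.52 to 86.4 CPM (median 19.7) with aFGF (aFGF over bFGF 1.73, SE 0.52, adjusted p = 0.0428). Ptx3, a pentraxin of innate immunity, had 37.7, 303 and 56.6 CPM in the controls and 210.5 to 1604 CPM (median 825) with aFGF (aFGF over bFGF 1.80, SE 0.47, adjusted p = 0.0242). Sphk1, which makes sphingosine 1-phosphate, had 16.3, 69.6 and 14.3 CPM in the controls, 53.8 to 110.2 CPM (median 78.2) with aFGF and 27.6 to 52.3 CPM with bFGF (aFGF over bFGF 1.20, SE 0.14, adjusted p = 0.00115). The acute phase gene Saa3 was not called in that test, with 1304, 7653 and 1122 CPM in the controls and 4467 to 8255 CPM (median 5804) with aFGF (aFGF over bFGF 0.03, SE 0.18, adjusted p = 0.926). Itga5, the fibronectin receptor subunit, had 166, 401 and 142 CPM in the controls and 307 to 687 CPM (median 440.4) with aFGF, and was higher than with bFGF (log2 fold change 0.79, adjusted p = 0.00712).

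Of the remaining genes with the smallest p values on the higher side, Spsb1, Adarb1, Emb and Cfap69 had log2 fold changes without control replicate 2 of 1.33, 1.34, 1.17 and 2.59 (adjusted p = 0.00228, 0.00248, 0.00332 and 0.00332). Their levels in control replicate 2 were 103, 74.0, 282 and 6.12 CPM, each within the aFGF range. Adarb1 encodes an RNA-editing enzyme and Emb the cell surface protein embigin. Rnd1, a small GTPase, and Ccno, a cyclin of ciliated cells, were among the largest changes, at 4.27 and 4.29 without control replicate 2 and 1.04 and 1.57 with it. Hypoxia genes were called higher in 7 of 34 cases and lower in 0 without control replicate 2 (20.6%, against 5.29% of all genes called higher), and in none without control replicate 1 or 3. Their median log2 fold change was 0.66 without control replicate 2 and 0.05 over 12 libraries. Hif1a, the oxygen-regulated transcription factor, had 257, 744 and 182 CPM in the controls and 517 to 862 CPM (median 672) with aFGF. Slc2a1, the glucose transporter GLUT1, had 80.6, 593 and 84.6 CPM in the controls and 154 to 355 CPM (median 242) with aFGF, so that control replicate 2 was the highest of the 12 libraries.

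**Figure D4:**
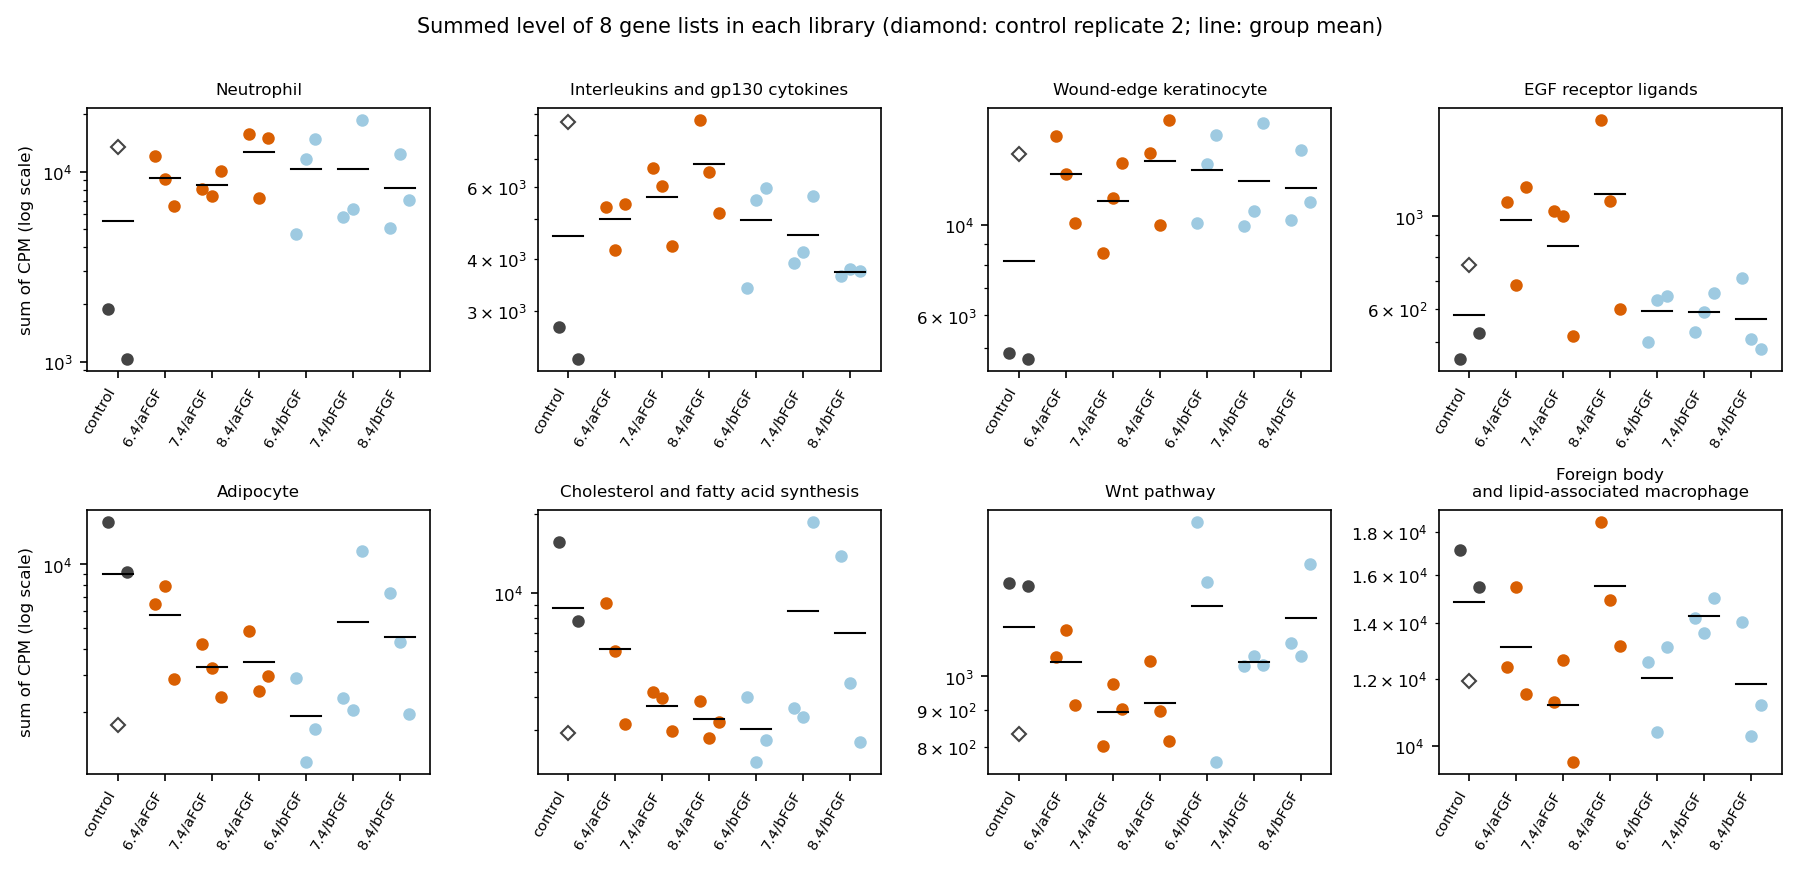
Summed CPM of the genes of 8 lists on a log scale, in each library of the control, aFGF and bFGF groups; points are libraries, the open diamond is control replicate 2 and lines are group means. In the neutrophil, wound-edge keratinocyte, adipocyte and lipid synthesis lists control replicate 2 lies apart from the other controls and within or beyond the range of the aFGF libraries.

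Fat and metabolic genes led the lower side. Of 25 adipocyte genes, 18 were called lower and 0 higher without control replicate 2 (72.0%, against 5.71% of all genes), with a median log2 fold change of -1.69 and of -1.14 over 12 libraries, where none was called. With a further control left out, 0 of them were called without control replicate 1 (edgeR) and 6 without control replicate 3, while DESeq2 called 20 without control replicate 2. Over 13 other settings without control replicate 2 alone, DESeq2 included, 10 to 20 of the adipocyte genes were called lower. Their summed level was 15921, 1745 and 9249 CPM in control replicates 1, 2 and 3 and 2373 to 7926 CPM (median 3233) with aFGF. Control replicate 2 was thus the lowest of the 12 libraries. With bFGF the list summed to 1172 to 11627.5 CPM (median 2348), and 0 of the 25 genes were called between aFGF and bFGF. Pparg, the master regulator of adipocytes, had 72.9, 8.79 and 49.6 CPM in the controls and 8.46 to 27.0 CPM (median 16.1) with aFGF (log2 fold change -1.90 without control replicate 2, SE 0.26, adjusted p = 0.00468). Lpl, the lipase that frees fatty acids from lipoproteins, had 1896, 169.6 and 1293 CPM in the controls and 199 to 883 CPM (median 396) with aFGF. These genes overlapped the controls through control replicate 2 only. Thrsp, a regulator of lipid synthesis, had 504, 12.3 and 235 CPM and 4.13 to 83.9 CPM (median 24.9). Hcar1, the lactate receptor of adipocytes, had 37.5, 3.00 and 20.4 CPM in the controls and 1.27 to 18.4 CPM with aFGF.

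Lipid synthesis genes had the same order. Of 31 genes of cholesterol and fatty acid synthesis, 9 were called lower and 0 higher without control replicate 2 (29.0%, against 5.71% of all genes called lower), a count that fell to 0 without control replicate 1 and 3 without control replicate 3. Fasn, fatty acid synthase, had 3823, 209.5 and 1778 CPM in the controls and 182 to 1666 CPM (median 404) with aFGF. The carboxylesterases Ces1d and Ces1f, which also occur in fat, had 315, 16.3 and 204 and 68.4, 0.773 and 30.0 CPM in the controls, and 9.88 to 69.6 and 0.429 to 13.9 CPM (median 2.72) with aFGF. Cyp2e1, a cytochrome of liver and fat, had 757, 14.5 and 375 CPM in the controls and 4.07 to 137 CPM (median 55.5) with aFGF. Acsl1, Acly and Acaca, which activate or build fatty acids, were among the 9 as well. Of the enzymes of peroxisomal fatty acid oxidation, Ehhadh had 21.8, 4.18 and 14.4 CPM in the controls and 3.33 to 8.18 CPM (median 4.67) with aFGF, and Acaa1b had 45.7, 2.83 and 17.9 CPM and 1.48 to 13.6 CPM (median 5.05). In these genes control replicate 2 lay inside the aFGF range, and the aFGF range lay below control replicates 1 and 3.

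The lower gene with the smallest p value was Irs1, the docking protein of the insulin receptor. It had 48.1, 9.19 and 42.4 CPM in the controls and 5.88 to 13.0 CPM (median 7.81) with aFGF, a log2 fold change of -2.41 without control replicate 2 (SE 0.14, adjusted p = 0.000145) and of -1.94 with it (SE 0.34, adjusted p = 0.101). Irs1 was also lower with aFGF than with bFGF (log2 fold change -0.76, adjusted p = 0.0479). Phgdh, the first enzyme of serine synthesis, had 63.8, 18.2 and 68.2 CPM in the controls and 16.4 to 32.5 CPM (median 23.5) with aFGF, and Gpt, alanine aminotransferase, had 34.6, 9.24 and 27.3 CPM and 8.21 to 13.6 CPM (median 10.5). The growth factor Vegfb had 41.7, 14.9 and 38.2 CPM in the controls and 14.4 to 21.5 CPM (median 17.7) with aFGF. The transcription factor gene Dmrt2, Cd99l2 and Sh3glb2 had log2 fold changes of -2.45, -0.82 and -0.97 without control replicate 2 (adjusted p = 0.00248, 0.00248 and 0.00248), and control replicate 2, at 1.57, 26.9 and 26.6 CPM, was within or below the aFGF range. Nnat and the heparin-binding growth factor Ptn were among the largest of the lower changes, at -2.86 and -2.77 without control replicate 2, and control replicate 2 had 1.80 and 14.2 CPM of them.

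Genes of the FGF system itself were divided. Of 21 ligands, receptors and co-receptors tested, Fgf7 and Sdc4 were called higher and Fgf10, Fgf13, Fgfr2 and Fgfrl1 lower without control replicate 2. This was 28.6% in either direction, against 11.0% of all genes, with a median log2 fold change of -0.08. Of these 6 calls, 1 lower call was kept without control replicate 3 and none without control replicate 1. Fgf7, the keratinocyte growth factor made by fibroblasts, had 26.0, 66.9 and 26.7 CPM in the controls and 35.9 to 77.3 CPM (median 70.4) with aFGF. Fgfr2, whose epithelial form is the receptor of Fgf7, had 50.2, 16.2 and 33.8 CPM in the controls and 10.8 to 28.3 CPM (median 13.8) with aFGF, and Fgfrl1 had 47.5, 14.6 and 40.6 CPM and 15.0 to 29.8 CPM (median 19.0). The aFGF range of Fgf7 lay above control replicates 1 and 3 and those of both receptor genes below them. The mouse's own Fgf1 had 8.01, 4.52 and 10.9 CPM in the controls and 6.46 to 15.4 CPM (median 8.55) with aFGF, and Fgf2 had 4.43, 5.18 and 5.62 CPM and 3.32 to 11.4 CPM (median 5.76). Neither was called (log2 fold changes 0.29, SE 0.33, and 0.30, SE 0.31, over 12 libraries). The added aFGF is protein and is not read by RNA-seq.

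Of 20 feedback targets of FGF and ERK signalling, 5 were called higher (Dusp5, Dusp6, Epha2, Fosl1 and Spred3) and 2 lower (Ccnd1 and Dusp4) without control replicate 2, with a median log2 fold change of 0.30 and no call without control replicate 1 or 3. The share called in either direction without control replicate 2 was 35.0%, against 11.0% of all genes. Dusp6, the phosphatase that acts on ERK, had 53.8, 105 and 66.1 CPM in the controls and 81.4 to 127 CPM with aFGF. Fosl1, an AP-1 transcription factor, had 4.35, 35.9 and 3.28 CPM in the controls and 20.6 to 61.0 CPM (median 29.5) with aFGF, and the receptor Epha2 had 11.8, 22.2 and 11.6 CPM and 19.6 to 38.3 CPM (median 30.1). In these 3 genes control replicate 2 lay inside the aFGF range. Dusp4, a further phosphatase of the family, had 18.4, 10.1 and 12.6 CPM in the controls and 4.04 to 11.1 CPM (median 6.52) with aFGF, with 1 aFGF library above control replicate 2, and its call was lost in 8 of 15 other settings. Etv5, an ETS factor that FGF induces, had 35.3, 33.9 and 31.8 CPM in the controls and 20.9 to 27.8 CPM (median 23.1) with aFGF, all below the controls, at a log2 fold change of -0.47 that was under the fold threshold. Of 25 immediate early genes, 5 were called higher (Ccn2, Ier3, Ier5, Junb and Maff) and 0 lower, none of them without control replicate 1 or 3.

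**Figure D5:**
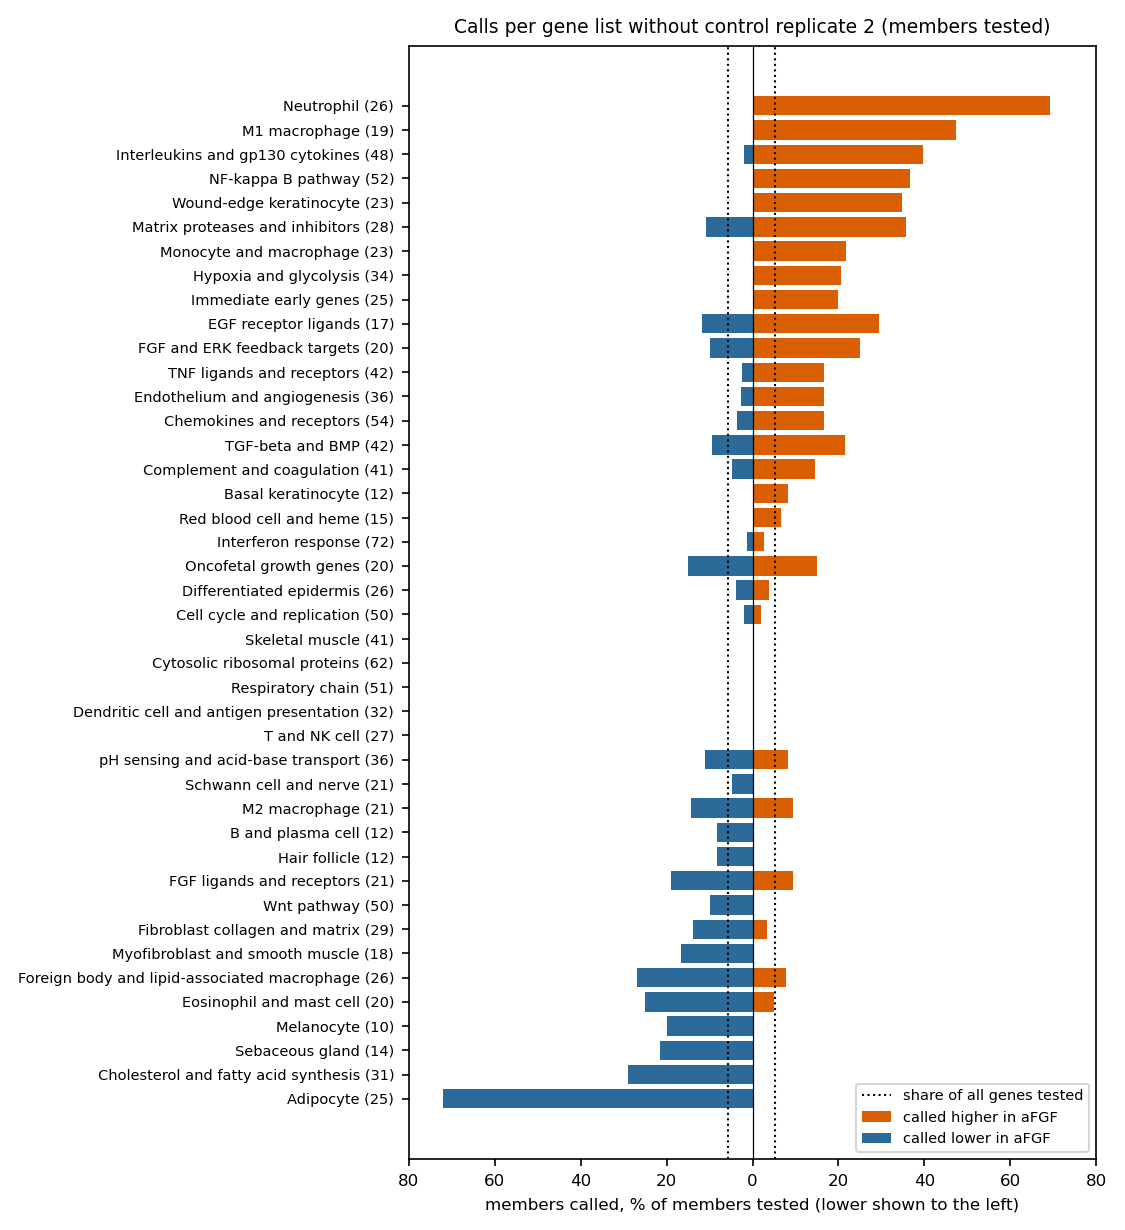
Percent of the tested genes of each list called higher (right) or lower (left) with aFGF without control replicate 2, with the number of genes tested in parentheses; dotted lines mark the share of all genes tested (5.29% higher, 5.71% lower). Neutrophil genes reach 69.2% on the higher side and adipocyte genes 72.0% on the lower side.

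Lists of signalling by TGF-beta and BMP (9 of 42 higher, 4 lower), of chemokines (9 of 54 higher, 2 lower) and of TNF ligands and receptors (7 of 42 higher, 1 lower) had calls in both directions without control replicate 2, where 5.29% of all genes were called higher and 5.71% lower. The higher calls of these 3 lists became 1, 2 and 1 without control replicate 1 and 0 in each without control replicate 3. Of 36 genes of pH sensing and acid-base transport, Slc16a1 and Slc16a3, which carry lactate with protons, and Slc9a3r1 were called higher, and Atp6v0d2, Car3, Car5b and Slc16a7 lower, of which 1 lower call was kept without control replicate 3 and none without control replicate 1. The lists with no call were those of T and NK cells (27 genes), dendritic cells and antigen presentation (32), skeletal muscle (41), cytosolic ribosomal proteins (62), the respiratory chain (51), cartilage and bone (18) and ovary and oviduct (9). In the interferon response list, Isg20 and Slfn1 were called higher and Ifi27l2a lower among 72 genes, and none of them without control replicate 1 or 3. The summed level of interferon response genes was 6104, 10775 and 5914 CPM in the controls and 3535 to 13597 CPM (median 5802) with aFGF. The highest value was that of 7.4/aFGF replicate 1 alone, and the next aFGF library had 7096 CPM, below control replicate 2. This library stood apart in 2 further lists, at 714 CPM of T and NK cell genes against at most 160 CPM in the other aFGF libraries and at 23843 CPM of dendritic cell and antigen presentation genes against at most 11333 CPM. Skeletal muscle genes varied from 1419.9 to 24824 CPM (median 5585) among the aFGF libraries and were at 4040.3, 5102 and 13421 CPM in the controls. A list of liver genes had a median log2 fold change of 2.06 over 12 libraries with no call in that fit. Its summed level was 2225, 694 and 1274 CPM in the controls and 647 to 1588 CPM (median 1073) with aFGF, overlapping ranges. Of its 21 genes tested between aFGF and bFGF, 12 were called higher with aFGF (57.1%, against 1.80% of all genes). Its genes Fga, Apoa1 and Serpina1b were at 8.94, 12.3 and 12.7 CPM in 8.4/aFGF replicate 2, and cartilage genes summed to 564 CPM in 7.4/aFGF replicate 3 against at most 48.7 CPM in any other of the 12 libraries. Without these 2 aFGF libraries together, edgeR called 0 genes against the 3 controls (2611 at an unadjusted p under 0.05), where the 5 genes had adjusted p of 0.0769 to 0.115. Without control replicate 2 as well, it called 1625.

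Each pH group was also set against the control alone. These 3 comparisons share the control libraries and are given side by side. With all 12 libraries, edgeR's quasi-likelihood test called 0 genes at pH 6.4 and 0 at pH 7.4, with 1499 and 2405 genes at an unadjusted p under 0.05 (82 and 214 calls with DESeq2), and 3 at pH 8.4 (0.0194%), namely Fkbp5, Prss35 and Col7a1. Without control replicate 2 it called 326 genes at pH 6.4 (2.07%), 1419 at pH 7.4 (9.03%) and 1472 at pH 8.4 (9.37%). A test among the 3 aFGF groups called 0 genes with edgeR, where 582 had an unadjusted p under 0.05, and DESeq2 called 5 (Gbp2b, F830016B08Rik, Hemgn, Rsrp1 and Naip6). Over 12 libraries, Fkbp5 had log2 fold changes of 1.54, 1.77 and 1.96 at pH 6.4, 7.4 and 8.4, and Tns4 had 1.09, 1.20 and 0.85. Prss35 had -2.60, -2.04 and -2.93, Col7a1 had -0.92, -1.34 and -1.48, and Megf6 had -1.57, -1.86 and -1.99. The 5 genes had the same sign in each pH group. This was fixed in advance, as every aFGF library lay on one side of all controls in each of these genes.

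The genes that the study singled out between hydrogels were read in the same comparison. Apold1, an early response gene of endothelial cells, had 14.3, 15.7 and 12.7 CPM in the controls and 11.0 to 66.7 CPM (median 22.4) with aFGF, and was not called (log2 fold change 0.93, SE 0.40, adjusted p = 0.253). By pH, its log2 fold changes were 1.38 at pH 6.4, 0.16 at pH 7.4 and 1.25 at pH 8.4. Tnfsf14, the TNF family ligand LIGHT, had 11.7, 71.3 and 3.97 CPM in the controls and 14.7 to 64.8 CPM (median 31.7) with aFGF, and was called higher only without control replicate 2 (log2 fold change 2.11, SE 0.46, adjusted p = 0.0187; 0.23 with it). The aFGF range of Tnfsf14 lay above control replicates 1 and 3 and below control replicate 2. Oas3, an antiviral enzyme induced by interferon, had 54.5, 169 and 40.8 CPM in the controls and 31.2 to 142 CPM (median 65.1) with aFGF and was called in neither fit, but it was higher with aFGF than with bFGF (log2 fold change 0.69, adjusted p = 0.0126). In that test 70 of 72 interferon response genes had a positive log2 fold change, and 6 were called higher (8.33%, against 1.80% of all genes). Of the aFGF libraries, 7.4/aFGF replicate 1 had the highest sum of these genes (13597 CPM). Il15, a cytokine for NK and T cells, had 10.1, 27.9 and 10.6 CPM in the controls and 8.24 to 17.5 CPM (median 13.2) with aFGF, and the interferon-inducible gene Rnf213 had 312, 443 and 254 CPM and 172 to 818 CPM (median 246). Gm12185 had 1.00, 6.52 and 1.13 CPM in the controls and 0.361 to 8.67 CPM (median 0.871) with aFGF. Ccr7, the chemokine receptor stained as an M1 marker, had 12.5, 37.6 and 12.3 CPM in the controls and 13.7 to 33.7 CPM (median 16.8) with aFGF. None of these 4 genes was called in either fit, and their log2 fold changes over 12 libraries were -0.39, -0.07, -1.21 and -0.14, against 0.25, 0.16, 0.22 and 0.60 without control replicate 2. The interferon-inducible gene F830016B08Rik had 6.77, 15.6 and 3.61 CPM in the controls and 2.45 to 37.8 CPM (median 4.55) with aFGF. Epx, the peroxidase of eosinophils, was under the filter on low counts.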

How the data were processed

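For each library the authors deposited raw, unnormalized read counts for 18806 genes. They also deposited FPKM values, which equal the deposited counts divided by a fixed gene length and the library total (checked on 12266 genes). The build named in the submitters' processing notes is GRCm39; the aligner, the counting tool and its strand setting are not given in the sources used here. Gene symbols are those of the files. All columns were mapped to samples by their labels.

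The tests used edgeR 4.0.16 in R 4.3.3, with TMM normalization, the filterByExpr defaults for low counts and the quasi-likelihood F-test. The principal components used log2 CPM with a prior count of 2. The fits held 12 libraries, 11 without control replicate 2, or the 18 hydrogel libraries for aFGF against bFGF. Alternatives used DESeq2 1.42.0, limma 3.58.1 on log2(FPKM + 1) or log2(FPKM + 0.1), RLE normalization, other filters, robust dispersion, the replicate number as a block, 1 group of 9, all groups in one fit, no fold threshold and each library left out. Leaving out 7.4/aFGF replicate 3 and 8.4/aFGF replicate 2 together was added after the data were seen. The edgeR and DESeq2 steps were tested on simulated counts, with pass criteria set for edgeR alone, and the limma step was not.

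The genes and lists were chosen with earlier results of these data known. Named genes were the called genes over 12 libraries, the 10 called genes per direction with the smallest p and the 10 with the largest change (mean of at least 5 CPM) without control replicate 2, up to 4 genes of each list by p in either fit, the genes the study named or stained for, and Hmga2. Not all of these genes are reported here. Other genes named as called members of a list were chosen after their values were seen. No coordinates or sequences are given, as no genome of the build was used here. The labels number 3 biological replicates per group and the sources used here do not say whether each is a separate mouse, so p-values measure the spread between these libraries. Taken over genes together, libraries of one group differed beyond counting noise. Whether depth limited the precision for genes with few counts was not tested.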

Additional observations from a re-analysis of the deposited data

Results flagged for a closer look

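Some genes named above also differed between the growth factors, in edgeR's test of aFGF against bFGF over all pH values. The threshold here was an adjusted p under 0.05 at any fold, which 2038 of 15696 genes tested met. This test is the difference of the effects of aFGF and bFGF against the control. It uses the same aFGF libraries by which many of these genes were chosen. The values below are the log2 fold changes of aFGF over bFGF. Of the 5 genes called with all 12 libraries, Fkbp5 (0.74), Tns4 (1.01), Prss35 (-1.43) and Col7a1 (-0.72) were among them.

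On the higher side with aFGF were genes of keratinocyte growth signals and adhesion, Areg (1.61), Epgn (1.11), Ereg (2.32), Tgfa (0.49), Hbegf (0.84), Grhl3 (0.80), Sphk1 (1.20), Itga5 (0.79) and Epha2 (0.48). Cytokine, receptor and stress genes were Il24 (1.39), Clcf1 (1.14), Tnfrsf12a (0.97), Hmox1 (0.65), Cd14 (1.19), Il11 (1.73), Ptx3 (1.80) and Oas3 (0.69). Proteases of the matrix were Mmp12 (-2.37), Mmp19 (1.67) and Adamts9 (0.77). Regulators of Wnt and insulin signalling and of growth that were lower with aFGF than with bFGF were Nkd1 (-1.0), Irs1 (-0.76), Hmga2 (-0.85) and Cdkn2b (-0.65). The remaining genes were Emb (0.27), Dmrt2 (-1.06) and Cd99l2 (-0.34).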

How the results depend on the processing

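Over 12 libraries, the 5 genes called against the control became 199 with all groups in one fit, 441 with DESeq2, 404 with DESeq2 without its Cook's cutoff and filtering, 24 with the 9 aFGF libraries as 1 group, 2 with limma without a filter, and 0 without 7.4/aFGF replicate 3 and 8.4/aFGF replicate 2. The other settings with all libraries gave 4 to 6. With 1 library left out there were 0 to 1730 calls. At pH 6.4 and 7.4, where edgeR called 0, DESeq2 called 82 and 214, and leaving out 1 library gave 0 to 326 and 0 to 1419. At pH 8.4 the 3 calls became 258 with DESeq2 and 0 to 1472 with 1 library left out. Among the aFGF groups DESeq2 called 5, and leaving out 1 library gave 0 with edgeR throughout. Without control replicate 2, the 1730 calls were 1374 to 2354 in other settings with all 11 libraries and 86 to 1822 with 1 more library left out, falling below 1426 only without control replicate 1 (86) or 3 (181). The split moved with RLE (932 higher, 838 lower), with DESeq2 (1323 and 1031), with edgeR without a filter (910 and 767) and with limma on log2(FPKM + 1) (604 and 801). Between aFGF and bFGF, the 592 calls ranged from 339 to 818 with 1 library left out, with 339 without 6.4/bFGF replicate 1, 373 without 7.4/aFGF replicate 1, 379 without 8.4/aFGF replicate 1, 392 without 6.4/aFGF replicate 3 and 394 without 8.4/aFGF replicate 2. The cause of these shifts was not tested.

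A replicate block gave 4 calls over 12 libraries and 1865 without control replicate 2, 0, 0 and 3 at pH 6.4, 7.4 and 8.4, 0 among the aFGF groups and 468 between aFGF and bFGF. Of 18 same-numbered pairs of libraries, 7 correlated above 0.1 (-0.42 to 0.288). Pairs with different numbers were not compared, so whether the numbers pair the libraries was not tested.

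Among the named genes, some log2 fold changes turned sign with 1 library left out of the 12, and ranged from -0.39 to 3.60 for Cxcl2, -0.97 to 2.15 for Tnf, -0.48 to 1.56 for Slc2a1, -0.29 to 2.11 for Tnfsf14, -0.69 to 0.54 for Oas3, -0.53 to 0.57 for F830016B08Rik, -1.62 to 0.22 for Gm12185, -0.64 to 0.25 for Il15, -0.25 to 0.16 for Rnf213, -0.42 to 0.60 for Ccr7 and -0.018 to 0.58 for Fgf1. Without control replicate 2 they ranged from -0.067 to 0.20 for Mrc1, from -0.062 to 0.37 for Gm12185 and from -0.19 to 0.22 for Fgf1, which was at 0.017 with RLE and 0.018 with DESeq2.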
